A study of Mus musculus with 17 samples.

Results

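Aquaporins are the membrane channels that let water, and in some members glycerol, cross cell membranes. Transcripts of 6 of them (Aqp1, Aqp2, Aqp4, Aqp7, Aqp8 and Aqp9) were followed in the hearts of 17 wild-type mice. They are 6 of the 31647 features of the count table, chosen by gene symbol for their levels in a comparison of infarct and sham hearts. Because that comparison selected them, differences of these genes between the groups are described and not tested. The mice were young adult C57BL/6 J males. Myocardial infarction (MI) was set in 9 mice by a permanent ligature on the left anterior descending artery, and the infarct zone (IZ) was cut out of the ventricle, whereas 8 mice had sham surgery with no ligature and gave left ventricular tissue. Tissue was taken on day 5. Which part of the ventricle the sham tissue came from was not given in the sources used here, and each piece holds all the cell types of its part of the wall. Each library was made from 1 animal by massive analysis of cDNA ends (MACE), which reads 1 tag from the 3' end of each polyadenylated transcript, so that values are not divided by transcript length.

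Aquaporins assemble as tetramers in which every monomer holds its own pore. Aqp1, Aqp2 and Aqp4 are water channels, Aqp7 and Aqp9 are aquaglyceroporins that also pass glycerol, and Aqp8 passes water and small molecules such as ammonia and hydrogen peroxide. In the heart AQP1 is best known from capillary endothelium and red blood cells, AQP4 from the cardiomyocyte membrane and AQP7 from cardiomyocytes and capillary endothelium, where it carries glycerol. Aqp2 is the vasopressin-regulated channel of the renal collecting duct, and Aqp9 is best known from liver and leukocytes.

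The pore of each monomer is lined by a pair of short loops, each with a signature motif of asparagine, proline and alanine (NPA), and AQP7 is known for variants of it. The coding stretches around both motifs are shown because they separate the member that differs from the others. They are 27 bases long and run 5' to 3' on the coding strand, with capitals on the 9 bases of the motif. They were read from GENCODE transcripts of GRCm38, and every stretch lies within a single coding exon.
Aqp1 loop at codon 76, exon 1, chr6:55336707-55336733: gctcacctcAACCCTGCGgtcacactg
Aqp1 loop at codon 192, exon 3, chr6:55345828-55345854: tgcggtatcAACCCTGCCcggtcattt
Aqp2 loop at codon 68, exon 1, chr15:99579345-99579371: gcccacatcAACCCTGCTgtgactgtg
Aqp2 loop at codon 184, exon 3, chr15:99583115-99583141: tgctccatgAATCCAGCCcgctccctg
Aqp7 loop at codon 79, exon 3, chr4:41035602-41035628: gcccacatgAATGCCGCAgtgactttc
Aqp7 loop at codon 211, exon 5, chr4:41034804-41034830: tatgcaatcAACCCATCCcgtgacctg
Aqp8 loop at codon 92, exon 3, chr7:123464193-123464219: ggacacttcAACCCTGCTgtgtcgctg
Aqp8 loop at codon 210, exon 5, chr7:123466602-123466628: gcctgcatgAACCCTGCTcgtgccttt
Aqp9 loop at codon 110, exon 3, chr9:71132732-71132758: ggccacatcAACCCAGCGgtgtctttt
Aqp9 loop at codon 242, exon 5, chr9:71122841-71122867: tgtgccatgAACCCTGCTcgagacctc
In Aqp7 the capitals encode alanine in the middle of the motif at codon 79 and serine at its end at codon 211, and in the other members shown both stretches encode NPA. Over the whole coding sequence the closest pair among the 6 was Aqp1 and Aqp2 with 58.2% identical bases, and the aquaglyceroporins Aqp7 and Aqp9 shared 51.4%. The remaining pairs shared 45.9% to 50.6%. Every member had a closer relative outside the 6. For Aqp2 it was its neighbour Aqp5 with 66.7%, and for Aqp1 the aquaporin Mip with 58.5%. For Aqp4 it was Aqp6 with 53.1%, and for Aqp8 it was Aqp11 with 48.9%. For Aqp7 and Aqp9 it was Aqp3, with 55.7% and 53.0%.

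The promoters of Aqp1 and Aqp7, the members with the most counts in sham, and of Aqp2, the member with the most counts after Aqp1 in the IZ, were read from RefSeq (GRCm38.p6). Each runs from 250 bases before the start of transcription to 50 bases after its first base, 5' to 3' on the gene's strand. Capitals mark matches, on either strand, to the TATA box (TATAA), the GC box (GGGCGG), the AP-1 site (TGANTCA), the GATA site (AGATAA) and the palindromic E-box (CACGTG). The general E-box (CANNTG) was searched as well but left in lower case, and matches could overlap.
Aqp1, chr6:55336049-55336348, plus strand: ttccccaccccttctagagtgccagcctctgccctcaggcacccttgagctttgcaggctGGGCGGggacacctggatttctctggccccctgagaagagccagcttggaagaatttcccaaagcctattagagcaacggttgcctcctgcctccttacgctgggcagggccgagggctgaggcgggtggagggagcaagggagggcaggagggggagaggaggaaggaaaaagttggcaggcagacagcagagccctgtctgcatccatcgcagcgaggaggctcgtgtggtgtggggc
Aqp2, chr15:99578806-99579105, plus strand: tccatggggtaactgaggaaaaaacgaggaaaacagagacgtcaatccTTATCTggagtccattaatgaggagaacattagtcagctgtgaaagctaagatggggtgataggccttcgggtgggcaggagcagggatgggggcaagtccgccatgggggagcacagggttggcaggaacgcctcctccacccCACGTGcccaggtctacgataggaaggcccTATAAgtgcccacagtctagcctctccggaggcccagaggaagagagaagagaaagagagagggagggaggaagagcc
Aqp7, chr4:41048087-41048386, minus strand: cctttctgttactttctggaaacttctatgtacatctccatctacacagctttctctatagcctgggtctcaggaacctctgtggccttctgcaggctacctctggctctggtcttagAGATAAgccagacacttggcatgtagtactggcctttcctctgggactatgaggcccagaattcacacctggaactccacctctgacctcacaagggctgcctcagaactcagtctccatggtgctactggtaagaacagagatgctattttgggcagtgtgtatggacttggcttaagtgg
The Aqp2 promoter holds TATAA 28 bases before the start, which 24.9% of all 32851 promoters of this length hold somewhere, CACGTG 58 bases before it (7.15% of promoters) and AGATAA, on the other strand, 202 bases before it (11.2%). CACGTG is also a match to CANNTG, which 72.3% of promoters hold. The Aqp1 promoter holds GGGCGG 190 bases before the start (35.7% of promoters) and has 62.7% G and C, against a median of 52.7%. The Aqp7 promoter holds AGATAA 132 bases before the start. None of the 3 holds TGANTCA (7.81% of promoters). RefSeq gives a second start for Aqp7, whose promoter is not shown.

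All 6 genes are protein coding. Aqp1 (ENSMUSG00000004655) spans chr6:55336432-55348555 on the plus strand, Aqp2 (ENSMUSG00000023013) chr15:99579055-99584547 on the plus strand and Aqp4 (ENSMUSG00000024411) chr18:15389496-15410982 on the minus strand. Aqp7 (ENSMUSG00000028427) spans chr4:41033074-41048139 on the minus strand, Aqp8 (ENSMUSG00000030762) chr7:123462291-123468004 on the plus strand and Aqp9 (ENSMUSG00000032204) chr9:71110659-71168682 on the minus strand. Aqp2 stands at the head of a cluster in which Aqp5 begins 6235 bases after its end and Aqp6 begins 6571 bases after the end of Aqp5. Aqp4 overlaps the antisense gene AC133525.2, and Aqp9 overlaps the antisense gene Gm32511 and the pseudogene Gm47268 on the opposite strand. None of the 3 has a row of its own in the count table, and whether the counting used strand was not given in the sources used here, so reads of such a pair could not be told apart. The last 500 bases of Aqp7 hold a stretch, ending 30 bases before the end of the transcript, that matches 28 other genes over at least 100 bases at 95% identity. Counts of Aqp7 are therefore uncertain to the extent that tags fell in that stretch, and the same search found no other gene for the other 5 members.

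Total counts ran from 1820809 to 4257919 per sham library and from 1237675 to 4738307 per IZ library. Levels are given as CPM, counts per 1000000 of the library size after scaling by the trimmed mean of M values (TMM). A count of 3 in a library was taken as the floor, which averaged 1.79 CPM in sham and 1.06 CPM in the IZ, and a group with no library above 3 counts is called at the floor. Infarct zone replicate 1 stood apart with 19.5% mitochondrially encoded counts, against 4.22% to 6.78% in the other 8 IZ libraries and 22.9% to 32.4% in sham. Of 12301 genes that passed the filter on low counts, 69.5% differed between the groups (edgeR quasi-likelihood F-test, adjusted p under 0.05), 36.3% higher and 33.1% lower in the IZ. For 16.6% of tested genes the lowest IZ library exceeded the highest sham library, and for 16.5% the highest IZ library stayed under the lowest sham library. Scaling by total count alone, the alternative that moved most results, called 74.8% of the same genes higher and 12.4% lower. Among the 6 aquaporins only Aqp1 and Aqp7 passed that filter.

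Aqp1 was the main aquaporin of both groups and its level in the IZ was far below that in sham. The sham libraries held 148 to 276 CPM with a median of 211 CPM, from 202 to 510 counts. The IZ libraries held 30.0 to 54.2 CPM with a median of 44.0 CPM, from 53 to 316 counts. The groups did not overlap, and at TMM scaling a wide gap separated the highest IZ library from the lowest sham library. By total count the gap was narrower, between IZ replicate 7 (100 of 1237675 counts) and sham replicate 6 (202 of 2043610). The mean was 213 ± 39.3 CPM over the sham libraries (SD, n = 8) against 42.9 ± 8.99 CPM over those of the IZ (SD, n = 9), a fitted log2 difference of -2.31 (SE 0.14). Under scaling by total count alone the difference kept its sign at -1.24. In tissue RNA, fewer cells that express a gene and less of its RNA per cell cannot be told apart.

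Aqp7, the glycerol channel, was lower in the IZ by a wider margin. Sham libraries held 8.36 to 26.5 CPM with a median of 16.0 CPM, from 15 to 41 counts. The IZ libraries held 0.33 to 7.25 CPM with a median of 1.08 CPM, from 1 to 20 counts. At TMM scaling no IZ library reached the lowest sham library, although IZ replicate 1, with 20 counts, came close to it. Replicate 1 also stood well above the next IZ library at 2.83 CPM. By total count the groups overlapped, as IZ replicate 1 held 20 of 2650935 counts and sham replicate 4 held 15 of 2678855. The mean was 15.9 ± 5.77 CPM over the sham libraries (SD, n = 8) against 1.74 ± 2.22 CPM over those of the IZ (SD, n = 9), with a fitted log2 difference of -3.34 (SE 0.44). Without IZ replicate 1 the IZ mean was 1.05 ± 0.87 CPM (SD, n = 8) and the fitted log2 difference was -4.13. Under scaling by total count alone it was -2.31.

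Aqp2 went the other way. In sham 6 of 8 libraries held no count and the others held 2 and 1, so the group was at the floor. All 9 IZ libraries held counts, from 8 to 24 per library, or 1.53 to 7.93 CPM with a median of 3.96 CPM. The groups did not overlap, as every IZ library exceeded the highest sham library at 1.09 CPM. IZ replicates 2 and 4, at 1.53 and 1.58 CPM, lay under the mean sham floor of 1.79 CPM. Of the tested genes, which did not include Aqp2, 16.6% had every IZ library above every sham library. The IZ mean of 4.34 ± 2.21 CPM (SD, n = 9) lay 2.43-fold above the mean sham floor, which is a lower bound and came to 5.08 under scaling by total count alone. Over the pooled counts, 114 in the IZ and 3 in sham, the ratio at TMM scaling was 16.5. Its exact 95% counting interval of 5.51 to 81.3 does not include the spread between animals.

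The collecting duct genes around Aqp2 were next to absent. Of 10 genes listed for vasopressin signalling and the collecting duct, 6 had a row in the table, none passed the filter on low counts, and 4 were at 3 counts or fewer in every library. These 4 were Avp, the hormone itself, Scnn1b, a subunit of the epithelial sodium channel that held no count at all, Fxyd4 and Hsd11b2, the enzyme that inactivates glucocorticoids in aldosterone target cells. Hsd11b2 held no count in sham and up to 3 counts in 6 of 9 IZ libraries. The vasopressin receptor Avpr1a averaged 1.93 ± 1.22 CPM over 8 sham and 0.96 ± 0.66 CPM over 9 IZ libraries (SD), and Scnn1a averaged 1.10 ± 0.70 and 0.52 ± 0.40 CPM (SD). Kidney markers were scarce too. Of 9 listed, 7 had a row and 5 were at 3 counts or fewer in every library, among them Slc34a1, the phosphate carrier of the proximal tubule, with no count, and Slc12a1, the salt carrier of the loop of Henle, with 1 count in all. Lrp2 reached at most 8 counts. Calb1, a calcium-binding protein of the distal tubule and of neurons, averaged 13.8 ± 2.76 CPM over 8 sham and 5.43 ± 2.93 CPM over 9 IZ libraries (SD) and supplied nearly all of the summed level of the list, which ran from 9.83 to 18.2 CPM in sham and from 3.04 to 11.6 CPM in the IZ.

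Aqp4 was counted at low levels in sham and was at the floor in the IZ. The sham libraries held 1 to 11 counts, or 0.68 to 5.69 CPM with a median of 3.08 CPM. In the IZ no library held more than 2 counts and 4 of 9 held none. Both groups overlapped at the level of 1 or 2 counts, where IZ replicate 8 with 1.03 CPM lay above sham replicate 2. The sham mean of 3.14 ± 1.70 CPM (SD, n = 8) lay 2.95-fold above the mean IZ floor, which is a lower bound under TMM scaling and came to 1.38 under scaling by total count alone. Over the pooled counts, 46 in sham and 7 in the IZ, sham was 15.1 times the IZ at TMM scaling. The exact 95% counting interval was 6.78 to 39.7, which does not include the spread between animals.

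Aqp8 and Aqp9 stayed near the limit of counting in both groups. The counts of Aqp8 went up to 9 among sham libraries and up to 5 among those of the IZ, with means of 1.61 ± 1.59 CPM (SD, n = 8) and 0.47 ± 0.57 CPM (SD, n = 9). The ranges overlapped, and 2 sham and 3 IZ libraries held no count. Over pooled counts of 23 and 15 at TMM scaling, sham was 3.53 times the IZ, with an exact 95% counting interval of 1.76 to 7.27. The interval does not include the spread between animals, and sham replicate 5 alone held 9 of the 23 counts. TMM multiplied library sizes by 0.61 to 0.72 in sham and by 1.04 to 1.52 in the IZ, so the ratio is smaller by total count. The highest IZ value of Aqp8, 1.81 CPM from 5 counts, belonged to replicate 1, without which the IZ mean was 0.30 ± 0.29 CPM (SD, n = 8). Aqp9 had 1 count in all in sham and 16 in the IZ, spread over 5 libraries with 2 to 4 counts each. Its IZ mean of 0.65 ± 0.80 CPM (SD, n = 9) lay under the mean sham floor, so no fold is given.

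**Figure D1:**
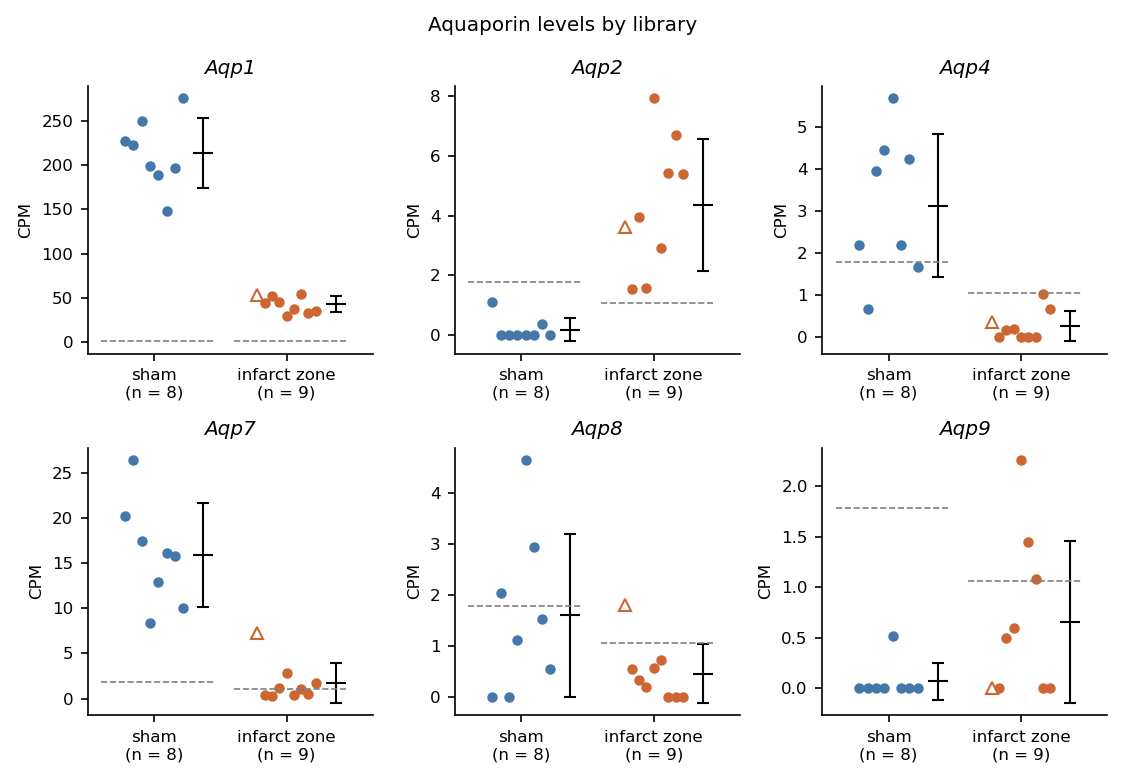
Level in CPM (vertical axes, each with its own linear scale) of the 6 aquaporins in 8 sham and 9 infarct zone libraries. Points are libraries, the open triangle is infarct zone replicate 1, bars are mean ± SD, and dashed lines are the mean floor of 3 counts. At TMM scaling Aqp1 and Aqp7 in the infarct zone lie below all sham libraries. Aqp2 in the infarct zone lies above all of them, with at least 8 counts in each library. By total count the 2 groups overlap in Aqp7. Aqp7 in the infarct zone lies mostly around or under the floor, as do Aqp4, Aqp8 and Aqp9 in 1 or both groups.

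Since each transcript end gives 1 tag, the CPM of different aquaporins can be set side by side. In sham the order of mean CPM was Aqp1 with 213, Aqp7 with 15.9, Aqp4 with 3.14, Aqp8 with 1.61, Aqp2 with 0.18 and Aqp9 with 0.06. Aqp4 and Aqp8 overlapped within their SD, as did Aqp8 and Aqp2, and Aqp2 and Aqp9 at the floor. In the IZ it was Aqp1 with 42.9, Aqp2 with 4.34, Aqp7 with 1.74, Aqp9 with 0.65, Aqp8 with 0.47 and Aqp4 with 0.27. Below Aqp1 every pair of neighbours in that order overlapped within their SD. Per library the 6 genes together made up between 169.8 and 288 CPM in sham hearts and between 41.8 and 66.0 CPM in the IZ, most of it Aqp1.

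Of the 6 other aquaporins listed, 5 had a row and none passed the filter on low counts. Aqp5, the secretory gland water channel beside Aqp2 on chromosome 15, had no count in any sham library and 48 counts in the IZ. Infarct zone replicates 2 and 3 held 25 and 14 of them, which was 3.48 and 2.31 CPM, and 3 IZ libraries held none. Its IZ mean of 0.99 ± 1.23 CPM (SD, n = 9) lay under the mean sham floor. The same replicates 2 and 3 carried fat cell markers, with 225 and 48.3 summed CPM against 72.7 in replicate 7 and at most 2.54 in the other 6 IZ libraries. Of 6 fat cell markers, all had a row, the summed sham range was 2.19 to 29.5 CPM and only Lep was at 3 counts or fewer in every library. Mesothelial markers, of which all 5 had a row, summed to 126 CPM in replicate 2, 28.2 CPM in replicate 3 and 73.3 CPM in replicate 6, against 7.25 to 18.1 CPM in the other IZ libraries and 7.81 to 20.4 CPM in sham. Aqp5 stood at 1.69 CPM (5 counts) in replicate 9, where fat cell markers summed to 0.34 CPM and mesothelial markers to 12.5 CPM. It had 1 count in replicate 7 and none in replicate 6. The part of both marker lists in the Aqp5 counts was not tested. In Aqp2, replicates 2 and 3 stood at 1.53 and 3.96 CPM, at or below the median of the IZ. Aqp11, an intracellular aquaporin, averaged 1.60 ± 1.56 CPM over 8 sham and 0.84 ± 0.89 CPM over 9 IZ libraries (SD). Aqp3 had no count in sham and 6 in the IZ, Aqp6 had 3 in sham and none in the IZ, and Aqp12 had 2 in 1 IZ library.

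Cell type markers moved between the groups along with the aquaporins. All 8 cardiomyocyte markers were lower in the IZ (edgeR, adjusted p under 0.05), with a median log2 fold change of -3.62, and their summed level lay between 66820 and 79417 CPM in sham hearts and between 2826 and 29636 CPM in the IZ. The highest IZ value was that of replicate 1, and the other 8 libraries held at most 6774 CPM. Without replicate 1 the median log2 fold change of the list was -4.52. The endothelial list moved less than Aqp1 and its direction depended on the scaling. Of its 8 genes 3 were called lower (Kdr, Egfl7 and Cldn5) and none higher, against 33.1% and 36.3% of all tested genes, with a median log2 fold change of -0.31. Scaling by total count alone gave 1 lower and 7 higher, against 12.4% and 74.8% of all genes. Its summed level was between 507 and 976 CPM in sham hearts and between 385 and 618 CPM in the IZ. Kdr, the main receptor for vascular endothelial growth factor, fell by 1.70 on the log2 scale (SE 0.22, edgeR adjusted p 2.6e-07), and was the gene that stayed lower under total count scaling. Pecam1 and Cdh5, which mark endothelium at large, had log2 fold changes of -0.16 (SE 0.17) and -0.21 (SE 0.15) that did not pass the test. All 6 genes of the capillary lipid uptake list were called lower, with a median log2 fold change of -2.02, and 4 of the 6 under scaling by total count alone. They summed to between 2316 and 3523 CPM in sham hearts and between 509 and 1298 CPM in the IZ. Among them were Cd36, the fatty acid transporter, at -2.32 (SE 0.17) and Car4, a carbonic anhydrase of the capillary surface, at -4.03 (SE 0.44), which was -4.87 without IZ replicate 1.

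Blood and immune cell markers behaved differently. Of 5 tested erythroid genes none was called, against 36.3% of all tested genes called higher and 33.1% lower. Their summed levels overlapped between sham hearts (3116 to 7717 CPM) and the IZ (2005 to 15360 CPM). Under scaling by total count alone all 5 were called higher, as were 74.8% of all tested genes. All 8 macrophage genes were called higher under every scaling, and together they held 220 to 287 CPM per sham library and 1197 to 2085 CPM per IZ library. All 4 tested neutrophil genes of 8 listed were called higher, and 5 of 6 fibroblast genes. The 5 IZ libraries with counts of Aqp9 held summed neutrophil levels between 45.3 and 232 CPM, and the 4 without it between 15.9 and 99.8 CPM. These ranges overlapped. The highest Aqp9 level, 2.27 CPM from 4 counts in IZ replicate 5, came with 45.3 CPM, while IZ replicate 2 with 99.8 CPM held no count. Skeletal muscle markers held at most 34.0 CPM per sham library and at most 23.2 CPM per IZ library. The part of any of these lists in the levels of the aquaporins was not tested.

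**Figure D2:**
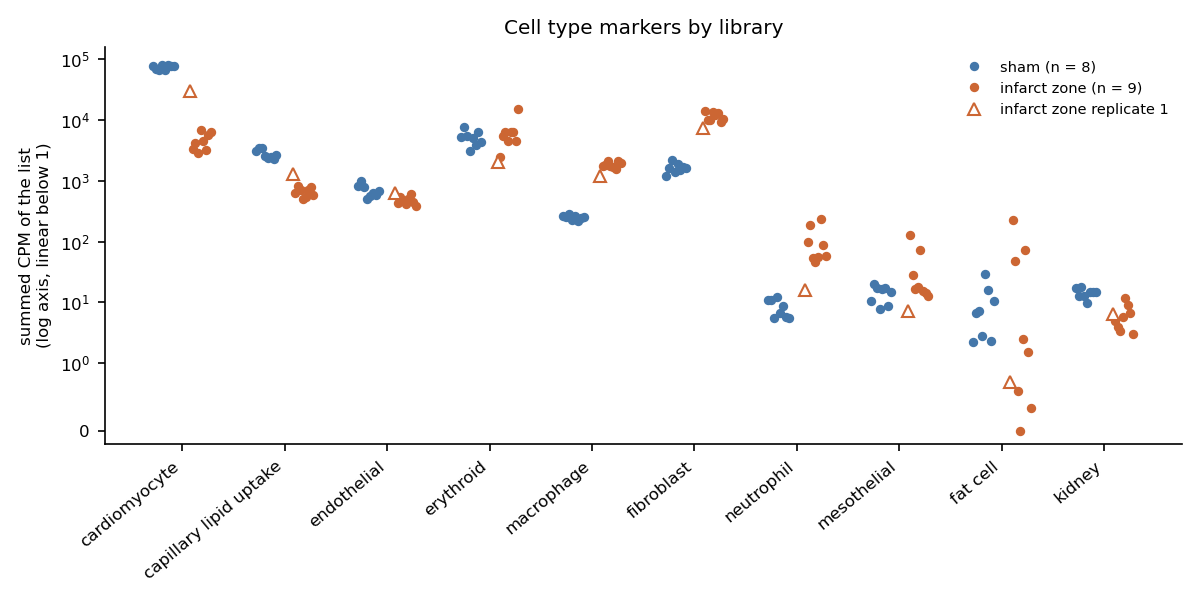
Summed CPM of 10 lists of cell type markers (vertical axis, logarithmic above 1 and linear below it) in 8 sham and 9 infarct zone libraries. Points are libraries and the open triangle is infarct zone replicate 1. Cardiomyocyte and capillary lipid uptake markers of the infarct zone lie below all sham libraries at TMM scaling, endothelial markers overlap with sham, and infarct zone replicate 1 carries the most cardiomyocyte RNA of its group at 29636 CPM.

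Most genes listed for glycerol and stored triglyceride were lower in the IZ, as Aqp7 was. The list was chosen with earlier results of these data known. The cardiomyocyte list had a median log2 fold change of -3.62, and its part in these differences was not tested. Of 21 listed genes 19 were tested, 16 were called lower and 1 higher, against 33.1% and 36.3% of all tested genes, with a median log2 fold change of -1.36 against 0.05. Scaling by total count alone gave 8 lower and 4 higher, against 12.4% and 74.8% of all genes. The steepest fall was that of Plin5, the lipid droplet coat protein of oxidative muscle, from 108 ± 8.59 CPM (SD, n = 8) to 4.19 ± 6.61 CPM (SD, n = 9), which was -4.75 as a log2 fold change (SE 0.39). Dgat2, which makes triglyceride, followed at -4.29 (SE 0.47). Without IZ replicate 1 the values were -5.75 for Plin5 and -5.37 for Dgat2. Lpl, the lipase that frees fatty acids from circulating triglyceride, averaged 5117 ± 425 CPM over 8 sham and 570 ± 503 CPM over 9 IZ libraries (SD), which was -3.17 as a log2 fold change (SE 0.32). The lipases of stored fat fell as well, with log2 fold changes of -2.63 for Pnpla2 (ATGL), -1.44 for Lipe (hormone-sensitive lipase) and -1.36 for Mgll (monoglyceride lipase, which frees glycerol from its last fatty acid). Gk, the kinase that traps glycerol in the cell, went from 35.0 ± 5.44 CPM (SD, n = 8) to 16.1 ± 3.80 CPM (SD, n = 9), which was -1.12 as a log2 fold change (SE 0.15), and Gpd1, which links glycerol phosphate to glycolysis, fell by 2.36. Under scaling by total count alone Lipe, Mgll and Gk did not pass. The only gene called higher was Plin2, the droplet coat protein found in most cells, at 38.9 ± 5.22 CPM in sham hearts and 175 ± 52.0 CPM in the IZ (SD), which was 2.17 as a log2 fold change (SE 0.18). Gpd2 and Gpat4 did not pass, with log2 fold changes of 0.01 and -0.02. Plin1 and Cidec, which coat droplets of fat cells, were not tested.

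AQP4 is held at the cell membrane by the dystrophin complex. Of 14 genes listed for that complex 13 were tested, 10 were called lower and 1 higher, against 33.1% and 36.3% of all tested genes, with a median log2 fold change of -1.33. Scaling by total count alone gave 7 lower and 4 higher, against 12.4% and 74.8% of all genes. Dmd, which codes for dystrophin, had a log2 fold change of -1.73 (SE 0.24) and Dtna, alpha-dystrobrevin, one of -2.33 (SE 0.30). The lowest of the list was the sarcoglycan gene Sgca at -3.07 (SE 0.35), which was -3.68 without IZ replicate 1. Sntb2, beta-2-syntrophin, was the gene called higher, at 16.3 ± 3.22 CPM in sham hearts and 30.0 ± 5.96 CPM in the IZ (SD), which was 0.86 as a log2 fold change (SE 0.15). Utrn, the dystrophin relative utrophin, fell by 0.65 (SE 0.12), a direction that turned to 0.43 under scaling by total count alone. The matrix partners of dystroglycan, Lama2 and Agrn, did not pass at -0.38 and -0.18 and were called higher under scaling by total count alone, at 0.67 and 0.88. Lama2 was called lower at -0.45 without sham replicate 1, at -0.55 without IZ replicate 1 and at -0.42 without IZ replicate 6.

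Genes of cell volume control and the osmotic response showed no common direction. Of 22 listed 20 were tested, 7 were called higher and 8 lower, with a median log2 fold change of 0.01, and scaling by total count alone gave 15 higher and 1 lower. These shares were near those of all tested genes, 36.3% higher and 33.1% lower at TMM scaling and 74.8% and 12.4% at total count, and are no result about the list. Among the volume-regulated anion channel subunits, the essential Lrrc8a was called lower by a small margin at -0.28 (SE 0.10), a direction that turned to 0.80 under scaling by total count alone, and a call that was lost at -0.17 under upper quartile scaling, at -0.22 with no filter on low counts and at -0.24 without IZ replicate 3. Its partners Lrrc8b, Lrrc8c and Lrrc8d were called higher at 0.87, 0.57 and 0.61. The highest gene was Ano6, a scramblase and ion channel, at 1.10 (SE 0.13). Of the osmolyte carriers Slc6a6 (taurine) stood at 0.74 (SE 0.11) and Slc5a3 (myo-inositol) at 0.93 (SE 0.31), while Akr1b3, which makes sorbitol, fell by 1.18 (SE 0.14) and did not pass under scaling by total count alone. Nfat5, the transcription factor of the response to high salt, did not pass at 0.05 (SE 0.17). Slc12a7, a potassium chloride cotransporter, was the lowest of the list at -1.98 (SE 0.23).

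**Figure D3:**
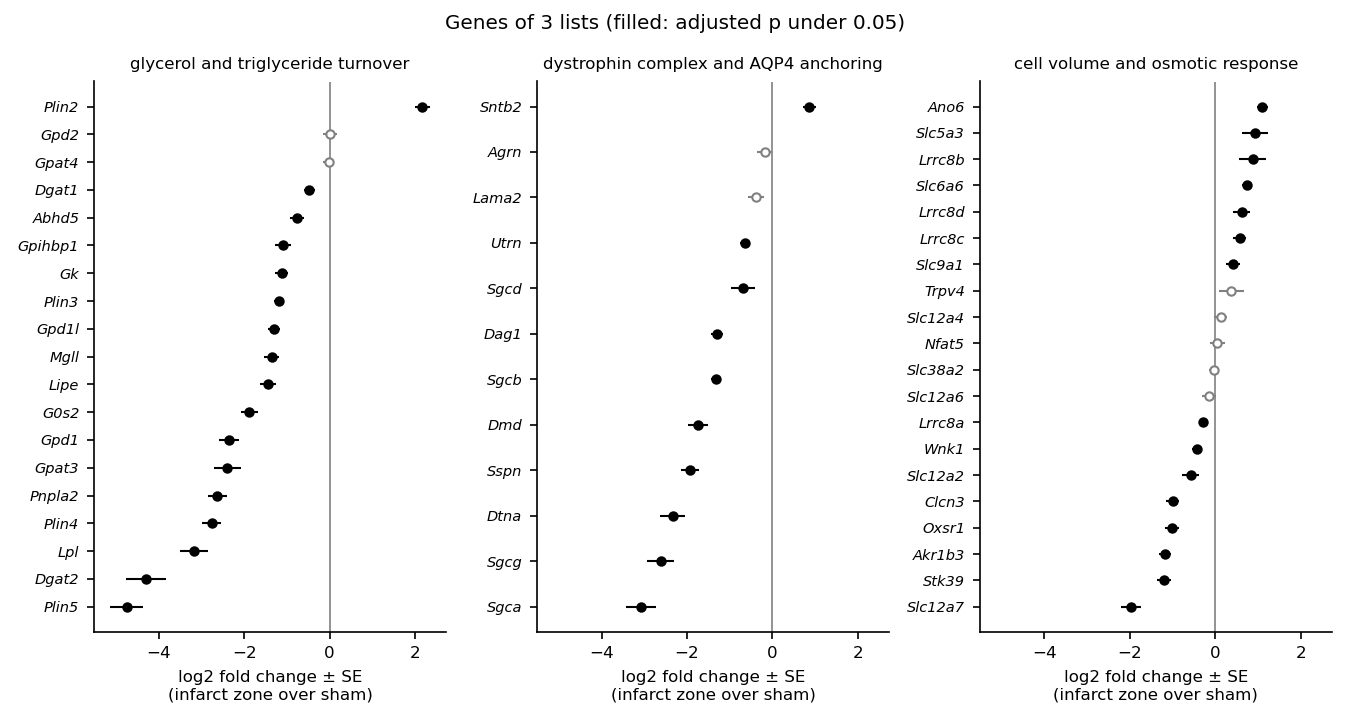
Log2 fold change of the infarct zone over sham (horizontal axes) with its SE for the tested genes of 3 lists, less 1 gene of the dystrophin list, TMM scaling. Filled points passed an adjusted p of 0.05 and open points did not. Most genes of the glycerol and dystrophin lists lie left of 0, with Plin2 at 2.17 and Sntb2 at 0.86 as the called exceptions, and genes of the volume list lie on both sides. Scaling by total count alone gave 8 lower and 4 higher, 7 lower and 4 higher, and 1 lower and 15 higher in the 3 lists.

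Libraries of one group were then compared with each other, which is independent of the difference between the groups. A member entered where its median count in the group was at least 10, which held for Aqp1 in both groups, Aqp2 in the IZ and Aqp7 in sham, and each was set against the scores of up to 7 marker lists, the mean log2 CPM of a list's genes at 5 CPM or more. Of 26 relations none passed an adjusted p of 0.05 by exact two-sided permutation of Pearson's r, and 5 had an unadjusted p under 0.05. Aqp1 followed the endothelial score in the IZ, with r 0.80 and rho 0.87 (n = 9, exact permutation p 0.0094 and 0.0045, adjusted 0.0813 and 0.107), and r was 0.70 without the 2 libraries farthest from the median score. In sham the same relation had r 0.41 and rho 0.55 (n = 8, exact permutation p 0.316, adjusted 0.631), and the difference between the groups was not tested. Aqp1 with the capillary lipid uptake score had r 0.72 in the IZ (n = 9, exact permutation p 0.0198, adjusted 0.129) and r 0.71 in sham (n = 8, exact permutation p 0.0442, adjusted 0.230), with 0.63 and 0.68 without the 2 farthest libraries. Aqp7 in sham had r 0.85 and rho 0.79 with the endothelial score (n = 8, exact permutation p 0.0090, adjusted 0.0813), which came down to 0.62 without sham replicates 1 and 2. Aqp7 had r 0.85 and rho 0.74 with the erythroid score in sham (n = 8, exact permutation p 0.0073, adjusted 0.0813), with 0.90 without the 2 farthest libraries. With the cardiomyocyte score Aqp7 had r -0.56 in sham (n = 8, exact permutation p 0.153, adjusted 0.436) and Aqp1 had r 0.04 in the IZ (n = 9, exact permutation p 0.935, adjusted 0.995). The value for Aqp1 turned on IZ replicate 1, whose cardiomyocyte score stood apart, and without it r was -0.81 (n = 8, exact permutation p 0.0208, adjusted 0.109). With the neutrophil score in the IZ, Aqp1 had r 0.09 (n = 9, exact permutation p 0.839). Without replicate 1 this r was 0.76 (n = 8, exact permutation p 0.0272, adjusted 0.118). With the erythroid score Aqp1 had r 0.21 in sham (n = 8) and -0.31 in the IZ (n = 9). Aqp2 showed no relation that passed with any of its 7 scores, its r running from -0.15 to 0.33 in the IZ (n = 9), where the smallest exact permutation p was 0.388. With the cardiomyocyte score Aqp2 had r 0.33 and rho 0.55 (n = 9, exact permutation p 0.411 and 0.133), and r was 0.84 without IZ replicate 1 (n = 8, exact permutation p 0.0114, adjusted 0.0987).

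**Figure D4:**
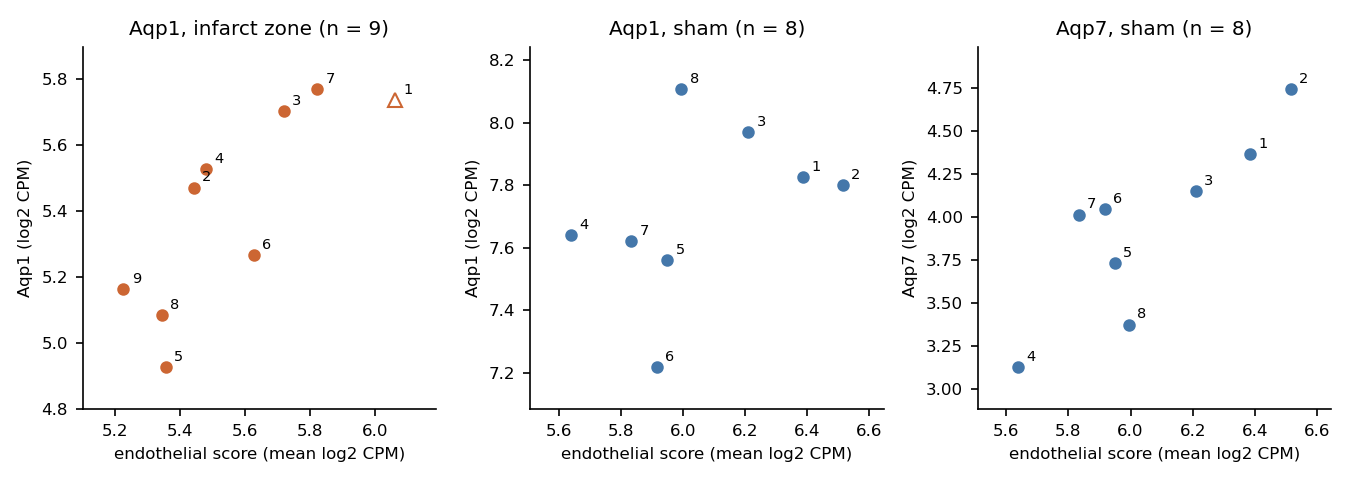
Log2 CPM of Aqp1 or Aqp7 (vertical axes) against the endothelial score, the mean log2 CPM of the list (horizontal axes), with 1 point per library labelled by its replicate number and the open triangle for infarct zone replicate 1. In the infarct zone Aqp1 runs with the score (r 0.80, n = 9), in sham more loosely (r 0.41, n = 8), and in sham Aqp7 runs with it as well (r 0.85, n = 8), with r 0.62 without replicates 1 and 2. None of the 3 passed an adjusted p of 0.05.

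The genes most like each member were sought by Pearson's r of log2 CPM within groups, as a description with no test. For Aqp1, over deviations from the group means in all 17 libraries and 9329 genes, they were Robo4 (r 0.82), Nck1 (0.79), Srrt (0.78), Smg1 (0.77) and Kank3 (0.77). For Aqp2, over the 9 IZ libraries and 9131 genes, they were Cops6 (0.95), Scamp1 (0.90), Zmat2 (0.89), Pdcd2 (0.89) and Coa4 (0.88). For Aqp7, over the 8 sham libraries and 8828 genes, they were Ssh2 (0.97), Filip1l (0.96), Zfp710 (0.96), Gm42432 (0.95) and Acp2 (0.95). With so few libraries and so many genes, high values of r arise for some gene whatever the member, and Aqp2 and Aqp7 rest on at most 24 and 41 counts per library.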

How the data were processed

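The deposited values are raw counts per gene in 17 heart libraries. The authors trimmed the 3' end reads with Cutadapt, collapsed PCR duplicates through molecular identifiers, mapped to mm10 and counted with HTSeq, and the labels also list Bowtie2. The annotation release, the use of strand and the treatment of reads that map to more than 1 place were not given in the sources used here. All 17 count columns were used, and the labels gave no batch.

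Differences between groups were computed in edgeR 4.0.16 under R 4.3.3 (filterByExpr with a minimum count of 10, TMM, quasi-likelihood F-test, Benjamini-Hochberg, threshold 0.05), in code tested on simulated data. CPM refers to the TMM-scaled library size, and log2 CPM uses a prior count of 1. Counting intervals are exact binomial at 95%. Alternatives were other scalings, DESeq2 1.42.0, other filters, dropping mitochondrially encoded features, a block for the replicate number and omission of each library in turn.

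The 6 members and all gene lists were chosen with earlier results of these data known. The genes named are all aquaporins, the lowest and highest called gene of each pathway list with further members as examples of their roles, list genes at the floor, and the 5 genes most like each eligible member. 1 gene of the dystrophin list is counted with its list but not reported here by itself. Positions follow GENCODE vM21 (GRCm38). BLAST 2.17.0, Biopython 1.88, SciPy 1.17.1 and Matplotlib 3.10.9 served for sequence matches, alignments, relations and plots. The edgeR p-values weigh a difference between groups against the spread between these animals. Permutation p-values weigh a relation against all pairings of the same libraries. Intervals and floors cover counting error only.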

Additional observations from a re-analysis of the deposited data

Results flagged for a closer look

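In 37 groups of libraries, formed by each aquaporin with counts, each marker list and the share of mitochondrial counts, the gap between an extreme library and its nearest neighbour was set against Dixon's 95% limit. It exceeded the limit in 10 of them. The limit sets apart about 1 group in 20 by chance when groups are independent and values normally distributed. These groups share libraries and some hold few counts, so the 10 cannot be weighed against that rate.

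Infarct zone (IZ) replicate 1 accounted for 6 of the 10. It held Aqp7 at 7.25 CPM (20 counts), above the next IZ library at 2.83 CPM, Aqp8 at 1.81 CPM (5 counts), above 0.73 CPM, and Aqp11 at 2.90 CPM (8 counts), above 1.35 CPM. It also held the highest cardiomyocyte marker sum of the IZ at 29636 CPM, above 6774 CPM, and the highest capillary lipid uptake sum at 1298 CPM, above 833 CPM. Its share of mitochondrial counts was 19.5%, above 6.78%. The part of the cardiomyocyte and mitochondrial content of this library in its aquaporin levels was not tested.

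Aqp3 reached 2.27 CPM in IZ replicate 5 from 4 counts, where the next library held 0.34 CPM. Erythroid markers summed to 15360 CPM in IZ replicate 9, above 6402 CPM in the next library, and fat cell markers to 225 CPM in IZ replicate 2, above 72.7 CPM. Skeletal muscle markers summed to 34.0 CPM in sham replicate 4, above 10.4 CPM.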

How the results depend on the processing

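The differences of Aqp1 and Aqp7 and the bounds of Aqp2 and Aqp4 kept their direction under every alternative that gave a value. Omitting 1 library at a time gave -2.38 to -2.24 for the log2 difference of Aqp1, -4.13 to -3.10 for Aqp7, 2.21 to 2.67 for the bound of Aqp2 and 2.62 to 3.30 for that of Aqp4. Aqp7 has no value under a minimum mean of 50 counts, since it did not pass that filter. Scaling by total count alone moved the median log2 value of all genes by 1.09, an upper quartile by 0.11 and no filter on low counts by 0.19. Total count alone gave -1.24 for Aqp1, -2.31 for Aqp7, 5.08 for the bound of Aqp2 and 1.38 for that of Aqp4, with 9203 genes called higher and 1524 lower, 4 higher and 8 lower in the glycerol list, 4 higher in the dystrophin list, and 15 higher and 1 lower in the volume list. It turned the log2 fold changes of Abhd5 (0.31), Dgat1 (0.61), Utrn (0.43), Sgcd (0.41), Lrrc8a (0.80), Slc12a2 (0.53), Clcn3 (0.091), Wnk1 (0.65) and Oxsr1 (0.054) to positive. The cause was not tested. A minimum mean of 50 counts left 2747 genes called higher and 2492 lower, and 4 higher in the volume list, among fewer genes tested. With no filter on low counts 1 vasopressin list gene was called higher, Hsd11b2, which held 10 counts in all.

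Sham and IZ libraries came from different mice, so the replicate numbers do not pair animals. The correlation of deviations over 8 shared numbers ran from -0.22 to 0.13, and 1 of 8 libraries correlated best with its own number. Such values cannot exclude a shared order of processing. With the number as a block 4221 genes were called higher and 3858 lower, Aqp1 stood at -2.28 and Aqp7 at -3.57, and Sgcd lost its call (adjusted p 0.0547), as it did under upper quartile scaling (0.0698), with no filter (0.0700) and on omission of any of 5 single libraries. Low counts limit Aqp2 in sham, Aqp4 and Aqp7 in the IZ, and Aqp8 and Aqp9, where changes within the floor of 3 counts per library cannot be seen.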
